A study of Mus musculus with 8 samples.

Results

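The collagen genes were taken as the protein-coding genes of GRCm38 whose symbol is Col, a number, a and a number, and 44 genes of 21887 placed protein-coding genes met this rule. Their regions were the rows of the deposited ATAC-seq count table that lie inside a collagen gene, or whose nearest protein-coding gene end is that of a collagen gene within 50 kb. This gave 651 regions of 148664, of which 490 lay inside a collagen gene and 161 outside. After a filter on low counts 627 of the 651 were tested, among 140329 tested regions in all. Collagen genes held 3 to 34 regions each, with a median of 11.5. Of the 651 regions, 6 also overlapped another protein-coding gene and 567 overlapped a peak call of at least 1 library. At the edge of the 50 kb limit, the last region inside was 49818 bp from Col5a1 with a mean of 15.1 CPM (counts per 1000000 counts of a library), and the first one outside was 50137 bp from Col25a1 with 1.85 CPM.

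ATAC-seq marks open chromatin through the places where a transposase inserts adapters. The study profiled 4 mouse melanoma cell lines in duplicate, 8 libraries of 50000 cells each. Lines 112 and 113 are labelled STAT3 knockout and lines 119 and 73 wild type, and the growth protocol names these genotypes Stat3∆ and Stat3fl, so the wild-type lines are those with the floxed allele. No treatment is given. All lines came from lymph node cell suspensions of mice with cutaneous melanoma, and the protocol calls them pools while the sample records call each a clone. The recombinase that deleted Stat3, its promoter and the driver of the melanoma are not given in the sources used here. The titles also carry a number after p (18, 44, 14 and 68 for lines 112, 113, 119 and 73), with no meaning stated, so it cannot be told apart from the line. The labels call the 2 libraries of a line biological replicates without saying how they were separated, so p-values between lines measure the spread between these libraries, which may be technical. With 2 lines per genotype, any property of a line other than its genotype cannot be told apart from the genotype when the lines of a genotype share it.

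Collagens are helical proteins of 3 chains that make up much of the extracellular matrix. The fibrillar types I, II, III, V, XI, XXIV and XXVII form or regulate fibrils. Type IV forms the sheet of basement membranes, type VI the beaded filaments, type VII the anchoring fibrils of skin, and types VIII and X hexagonal networks. The fibril-associated types (FACIT, such as IX, XII, XIV and XIX) bind to fibril surfaces, the multiplexins XV and XVIII sit at basement membranes, and XIII, XVII, XXIII and XXV cross the cell membrane. In skin the type I, III, V and VI chains are mainly products of fibroblasts, and melanoma cells can make matrix collagens as well. The chains of 1 type often lie side by side in the genome.

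The promoter sequences of 6 genes are shown because their start regions include one open in a single line, others low in both knockout lines and others open in every line. Each line gives the 150 bases before the RefSeq transcript start of GRCm38.p6, 5′ to 3′ on the gene's own strand, with capitals marking the CCAAT box, the TATA box (TATAAA) or the AP-1 sequence TGANTCA in either orientation. Col1a2 lies on the plus strand at chr6:4505468-4505617, and its start was open in a single line.
Col1a2: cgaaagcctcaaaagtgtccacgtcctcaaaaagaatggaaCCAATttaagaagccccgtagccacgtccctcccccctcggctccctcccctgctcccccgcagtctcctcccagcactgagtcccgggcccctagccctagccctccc
Col3a1 lies on the plus strand at chr1:45311388-45311537, and its start region was lower in both knockout lines.
Col3a1: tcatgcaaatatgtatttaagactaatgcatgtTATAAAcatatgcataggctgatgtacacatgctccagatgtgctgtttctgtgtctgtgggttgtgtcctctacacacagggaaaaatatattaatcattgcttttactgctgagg
Col6a1 lies on the minus strand at chr10:76726045-76726194, and its start region was also lower in both knockout lines.
Col6a1: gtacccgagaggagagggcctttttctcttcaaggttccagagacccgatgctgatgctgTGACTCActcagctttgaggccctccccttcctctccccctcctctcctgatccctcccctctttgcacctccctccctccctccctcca
Col18a1 lies on the minus strand at chr10:77166531-77166680, with the same direction.
Col18a1: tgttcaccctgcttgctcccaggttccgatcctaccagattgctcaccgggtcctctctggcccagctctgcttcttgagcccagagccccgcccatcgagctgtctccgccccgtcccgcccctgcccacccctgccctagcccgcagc
Col5a1 lies on the plus strand at chr2:27886275-27886424 and had the strongest of all collagen regions, open in every line.
Col5a1: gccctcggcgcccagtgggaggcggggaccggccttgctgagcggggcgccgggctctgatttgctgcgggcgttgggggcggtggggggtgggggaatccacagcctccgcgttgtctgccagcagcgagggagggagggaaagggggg
Col5a3 lies on the minus strand at chr9:20815068-20815217 and was likewise open in every line.
Col5a3: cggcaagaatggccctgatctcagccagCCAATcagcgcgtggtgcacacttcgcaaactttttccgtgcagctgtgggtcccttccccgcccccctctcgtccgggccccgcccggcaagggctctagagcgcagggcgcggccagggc
The 4 promoters whose start regions were low in the knockout lines or high in a single line did not share any of these 3 motifs in the printed stretches. The Col1a2 stretch holds a CCAAT box and the Col6a1 stretch TGANTCA, the sequence bound by AP-1. The Col3a1 stretch holds the letters TATAAA, with the first base 117 bases before the start. No match was found in the Col18a1 and Col5a1 stretches, and Col5a3 holds a CCAAT box. A match is a description of the letters and says nothing of binding.

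Over the RefSeq windows of 250 bases before to 50 after each start, 38 windows of 35 collagen genes were compared with all 32851 windows in the table, searching both strands. The GC box GGGCGG, the Sp1-type promoter element, occurred in 60.5% of collagen windows and 35.7% of all windows. CCAAT occurred in 34.2% and 37.4%, and TATAAA in 13.2% and 13.6%. TGANTCA was in 2.63% of collagen windows, which is the Col6a1 window alone, and in 7.81% of all. The letters TTCNNNGAA, the core of a STAT site, were in 5.26% against 8.30%, the pair TTGCNNAA bound by C/EBP factors in 7.89% against 10.8%, and GGAATG, bound by TEAD factors, in 13.2% against 14.7%. The M-box core CATGTG, bound by MITF, was in 7.89% against 14.2%, and CACGTG, the E-box that MITF also binds, in 0% against 7.15%. The median GC content was 59.8% for collagen windows and 52.7% for all, and the median number of CpG was 11.5 against 7. None of the searched motifs contains another, though matches can overlap, and no test was made of these shares.

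The library totals ran from 2697546 counts in line 112 replicate 2 to 7464336 in line 119 replicate 1. Replicates correlated across regions at 0.863 to 0.957. A peak was called over 7.07% to 26.9% of the collagen regions in the knockout libraries and 37.3% to 59.9% in the wild-type libraries, where the same shares over all regions were 12.6% to 33.5% and 35.7% to 61.1%. A shallow library can have fewer peaks, and line 112 replicate 2 with the fewest was also the shallowest. The CPM summed over all collagen regions was 3260 and 3153 for line 112, 3162 and 3012 for line 113, 3975 and 3975 for line 119, and 4286 and 4073 for line 73. All 4 knockout libraries were thus below all 4 wild-type libraries in this sum.

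The targeted gene does not check the labels, since open chromatin at its start need not change when the gene is deleted. The region at the Stat3 start had 25.6 to 38.2 CPM in the knockout and 18.1 to 38.4 CPM in the wild-type libraries, and the groups overlapped. The label of a melanoma line was checked against lineage markers. All 7 melanocyte lineage markers had a region within 1 kb of their start, or of either gene end for genes whose strand was not known here (Sox10, Pmel and Mlana). At Mitf, the factor that directs the lineage, line means were 24.5, 35.8, 18.6 and 38.7 CPM in lines 112, 113, 119 and 73. At Sox10, which acts upstream of Mitf, they were 21.9, 27.6, 17.4 and 3.05 CPM, so line 73 was low for this marker. At Dct, a pigment enzyme, they were 22.5, 62.0, 3.76 and 0.528 CPM. Tyr had 17.5, 19.6, 4.77 and 1.84 CPM, Tyrp1 5.19, 15.3, 1.01 and 2.80 CPM, and Mlana 10.3, 10.2, 0.738 and 0.253 CPM. Both wild-type lines were thus low for Mlana. The region taken for Pmel had 38.6, 63.1, 32.4 and 73.8 CPM. It lies 251 bp from a Pmel end, but its nearest gene end is that of Rab5b, so it is a weak marker of Pmel. The Mitf region is the strongest near any of the gene's 3 listed starts, and the other starts are not described. The shift of chromosome 6 in lines 112 and 119 given below for Col1a2 also covers Mitf. Chosen in the same way, with either gene end for Pdgfrb, Dcn, Lum, Thy1 and Fap, the start regions of all 8 fibroblast markers were present and summed to 40.7, 62.0, 61.2 and 164 CPM in the same order, with none at 0. Of the other lineages, 1 of 6 endothelial, 3 of 7 leukocyte and 1 of 4 keratinocyte markers had a start region in the table, and Pecam1, Ptprc, Krt5 and Krt14 had none.

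Collagen regions were more often lower than higher in the knockout lines, but no single region passed the genotype test. In that test counts were summed per line and 2 lines were set against 2, with edgeR's quasi-likelihood test and Benjamini-Hochberg adjustment over all tested regions. It called 0 of 627 collagen regions, where the share called over all regions was 0%, and among collagen regions the lowest adjusted p was 0.144. Without adjustment, 129 collagen regions had p under 0.05 (20.6%, against 16.9% of all regions), of which 80 were lower and 49 were higher in knockout lines. The lower ones made up 12.8% of the collagen regions, against 8.61% of all regions, and the higher ones 7.81% against 8.29%. The median log2 fold change (knockout over wild type) stood at -0.38 over the 627 collagen regions and -0.09 over all tested regions. It was below 0 in 387 collagen regions (61.7%) and in 53.4% of all. DESeq2's Wald test on the same line sums called 42 collagen regions (6.70%, against 4.83% of all regions), 27 lower and 15 higher.

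A second description compared the lines themselves, with 1 mean per line fitted to the 8 libraries. A region is called separated here when each knockout line differed from each wild-type line at an adjusted p under 0.05, in all 4 pairs with the same sign. This tests those lines and not the genotype. Of the 627 collagen regions, 76 (12.1%) were separated and lower in the knockout lines, against 7.42% of all regions, and 43 (6.86%) were separated and higher, against 7.63% of all. The order of these last shares turned round in 3 of the alternatives, so the higher share is read as near that of all regions. The lower regions differed by 1.79-fold to 13.7-fold between the genotype means, with a median of 4.35-fold. The higher ones differed by 2.51-fold to 15.1-fold, with a median of 4.99-fold. Among the 76 lower regions, 48 (63.2%) had a peak in all 4 wild-type libraries and in no knockout library, near the 60.3% of all separated lower regions. The opposite pattern was found in 2 of the 43 higher regions (4.65%), against 6.17% of all separated higher regions, and 4 of the 43 had no peak at all. Peak calls were fewer in the knockout libraries, which had one at 13.3% to 35.4% of all tested regions, against 37.2% to 63.0% in the wild-type libraries. The lower regions lay inside a collagen gene in 61 cases and the higher ones in 31. At least 1 lower region was found in 28 genes and at least 1 higher region in 19, with both in 10 genes and neither in 7.

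The shares called differed between the single pairs of lines. Line 113 was lower than line 119 in 37.6% of collagen regions and higher in 19.6%, while over all regions these shares were 28.8% and 30.2%. Line 113 was lower than line 73 in 37.3% and higher in 21.9%, against 26.4% and 25.8% of all regions. For line 112 the shares stood nearer to those of all regions: 28.4% lower and 21.7% higher than line 119, against 23.6% and 22.2%, and 29.7% lower and 23.1% higher than line 73, against 26.2% and 23.8%. Line 112 held the shallowest library and had the least correlated replicates (0.863 across regions), and the part of this in its shares was not tested. The lines of 1 genotype also differed from each other. Line 112 was higher than line 113 in 14.5% of collagen regions and lower in 9.41%, against 8.14% and 15.8% of all, so the collagen regions leaned the other way from the table as a whole. The count behind this pair, 150 regions (23.9%, the same share as of all regions), fell to 66 without line 113 replicate 1 and to 98 without line 113 replicate 2. Line 119 was lower than line 73 in 28.2% and higher in 26.6%, against 29.4% and 27.5%. These pairs share lines and are not independent of each other.

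**Figure D1:**
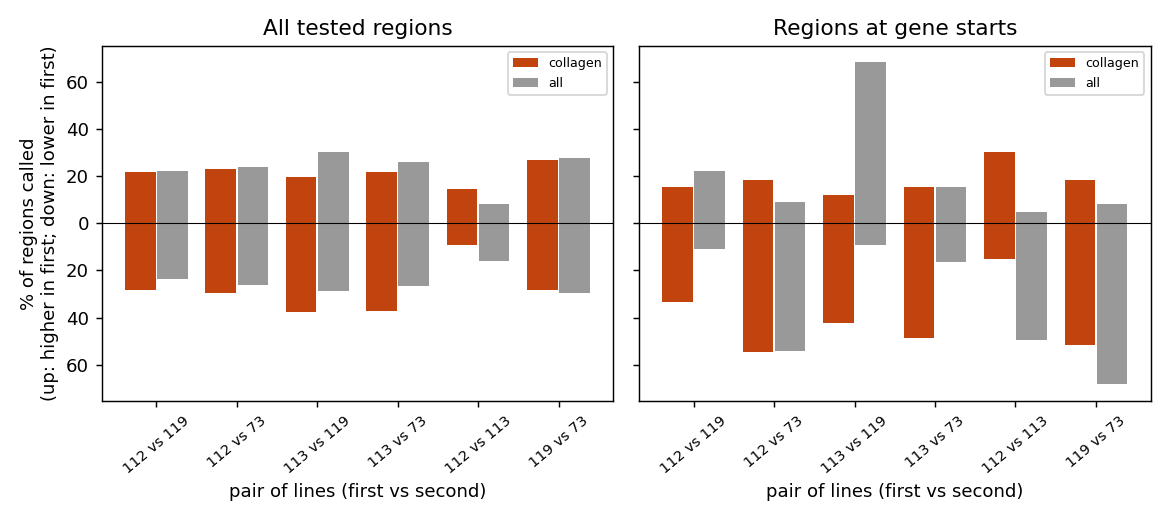
Share of tested regions called between each pair of lines, in percent, with regions higher in the first line above 0 and lower in the first line below. The left panel holds all tested collagen regions (627, red) and all tested regions (grey), and the right panel the 33 collagen regions and 13077 regions at gene starts; at starts line 113 was lower than line 119 in 42.4% of collagen regions and 9.26% of all.

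Some collagen regions stood apart in a single line. In 116 regions (18.5%) line 73 was higher than each of the other 3 lines, against 13.2% of all regions. Line 119 was privately high in 70 (11.2%, with 11.0% of all regions), line 113 in 36 (5.74%, with 7.35%) and line 112 in 14 (2.23%, with 1.74%). Line 113 was lower than each of the other 3 in 41 regions (6.54%), against 2.62%. Line 73 was lower than the others in 65 (10.4%), against 10.2%, line 119 in 17 (2.71%), against 4.84%, and line 112 in 7 regions, where 1.31% of all regions fell in this class. Line 73 thus had the most privately high regions, among collagen regions as among all regions. It also had the highest sum of fibroblast marker start regions (164 CPM against 40.7 to 62.0 CPM). Over all gene starts, line 73 was higher than line 119 at 68.3%, line 112 at 54.0% and line 113 at 16.5%. Its start sums were also highest for collagen biosynthesis (688 against 355 to 621 CPM), processing and receptor genes and leukocyte markers. They were not highest for melanocyte, endothelial or keratinocyte markers. The part of fibroblast-type chromatin in these results was not tested.

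At the gene starts the lower accessibility of collagen genes in the knockout lines was plainest. A region within 1 kb of a start was found for 36 of the 44 genes, as 34 distinct regions, and for the 9 genes whose strand was not in the reference tables either end of the gene was accepted. Col13a1, Col14a1, Col17a1, Col22a1, Col26a1, Col4a6, Col6a6 and Col8a2 had none. The strongest region near Col11a2 lies in the neighbouring gene Rxrb and is no collagen region by the rule, which left 33. Of these, 6 (18.2%) were separated and lower in the knockout lines, against 3.15% of 13077 start regions of all genes, and 2 (6.06%) were separated and higher, against 2.42%. The median log2 fold change was -0.51 at collagen starts and 0.09 at all starts. In 8 of the 33 all knockout libraries lay below all wild-type libraries, against 5.24% of all starts, and in 2 they lay above, against 5.16%. Collagen starts were also weaker, with a median of 8.40 CPM against 22.8 CPM for all starts, and the part of this level in the shares was not tested.

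In several pairs of lines the calls at collagen starts were divided between the directions differently from those at all starts of the table. Over all starts line 113 was higher than line 119 in 68.3% and lower in 9.26%, but at collagen starts it was higher in 12.1% and lower in 42.4%. Line 112 was lower than line 113 in 49.3% of all starts and higher in 4.79%, and at collagen starts it was lower in 15.2% and higher in 30.3%. Line 113 was lower than line 73 at 48.5% of collagen starts and 16.5% of all, and higher at 15.2% and 15.3%. Line 112 was lower than line 119 at 33.3% of collagen starts and 10.9% of all, and higher at 15.2% and 22.0%. It was lower than line 73 at 54.5% of collagen starts and 54.0% of all, and higher at 18.2% and 9.08%. Line 119 was lower than line 73 at 51.5% of collagen starts and 68.3% of all, and higher at 18.2% and 8.25%.

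Among the fibrillar collagens, the start of Col3a1 was low in both knockout lines. Col3a1 encodes the chain of type III collagen, and its start region spans the gene's first bases (chr1:45311125-45311838). It had 2.75 and 3.96 CPM for line 112, 1.57 and 2.88 for line 113, 10.4 and 9.20 for line 119, and 10.1 and 14.04 for line 73. Every knockout library was below every wild-type library. The means were 2.79 ± 0.802 and 10.9 ± 1.62 CPM (SD of line means, n = 2 lines per genotype), the log2 fold change was -2.0 ± 0.86 (SE), with an adjusted p of 0.254 (edgeR).

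Col5a2, the neighbour of Col3a1 with 24624 bp between them, encodes a type V chain that joins type I fibrils, and its end region had the largest difference of the named starts. The region (chr1:45502291-45503356) overlaps the gene's right end, and the reference tables did not give its strand. It had 4.36 and 3.05 CPM for line 112, 0.450 and 1.68 for line 113, 19.3 and 18.6 for line 119, and 29.3 and 29.7 for line 73. The groups did not overlap, and line 113 was the lowest. The log2 fold change was -3.33 ± 0.89 with an adjusted p of 0.144 in edgeR's quasi-likelihood test. Across the pair, 4 of 12 tested regions of Col3a1 and 3 of 15 of Col5a2 were separated and lower, beside 7.42% of all regions. None of either gene was separated and higher.

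The type I chains, Col1a1 and Col1a2, differed at the regions taken for their starts, though line 73 was highest at both. Summed over all regions of each gene, line 73 was also highest for both. In lines 112, 113, 119 and 73 Col1a1 summed to 75.0, 72.2, 82.3 and 164 CPM. Col1a2 summed to 100, 35.8, 91.0 and 231 CPM. The log2 fold changes of these sums were -0.71 ± 0.32 for Col1a1 and -1.095 ± 0.65 for Col1a2. The region 509 bp inside the left end of Col1a1 (chr11:94936733-94938277), a gene whose strand was also not in the tables, was open in every line, with 19.96 and 19.2 CPM for line 112, 25.6 and 20.1 for line 113, 23.6 and 27.1 for line 119, and 38.2 and 32.5 for line 73. The genotypes overlapped there, and the log2 fold change was -0.51 ± 0.63. The start region of Col1a2 (chr6:4505295-4505796) had 1.84 and 5.18 CPM for line 112, 1.35 and 1.44 for line 113, 0.512 and 0.669 for line 119, and 32.9 and 30.8 for line 73. It was thus open in line 73 and near background in the wild-type line 119, with 4 counts in each library. Between lines 119 and 73 its log2 fold change was -5.71 (edgeR adjusted p 1.08e-18), while the genotype test gave -2.77 ± 1.24 with an adjusted p of 0.274. On chromosome 6 the weak regions stood at 0.50 in line 112 and at -0.38 in line 119 relative to the mean of the lines (log2 scale), and the part of this shift in the Col1a2 values was not tested.

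Col5a1, the other main type V chain, had the strongest region of all collagen regions, with a mean of 34.0 CPM. It spans the start of the gene (chr2:27885974-27887628). The libraries had 38.5 and 32.9 CPM for line 112, 18.4 and 18.7 for line 113, 30.9 and 33.6 for line 119, and 57.4 and 41.3 for line 73. Line 112 lay above line 119, and the log2 fold change was -0.58 ± 0.62 with an adjusted p of 0.699 in edgeR's quasi-likelihood test. The start of Col5a3 (chr9:20814840-20815425), the third type V chain, also overlapped between genotypes, with line means of 18.3, 30.4, 15.7 and 23.0 CPM.

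**Figure D2:**
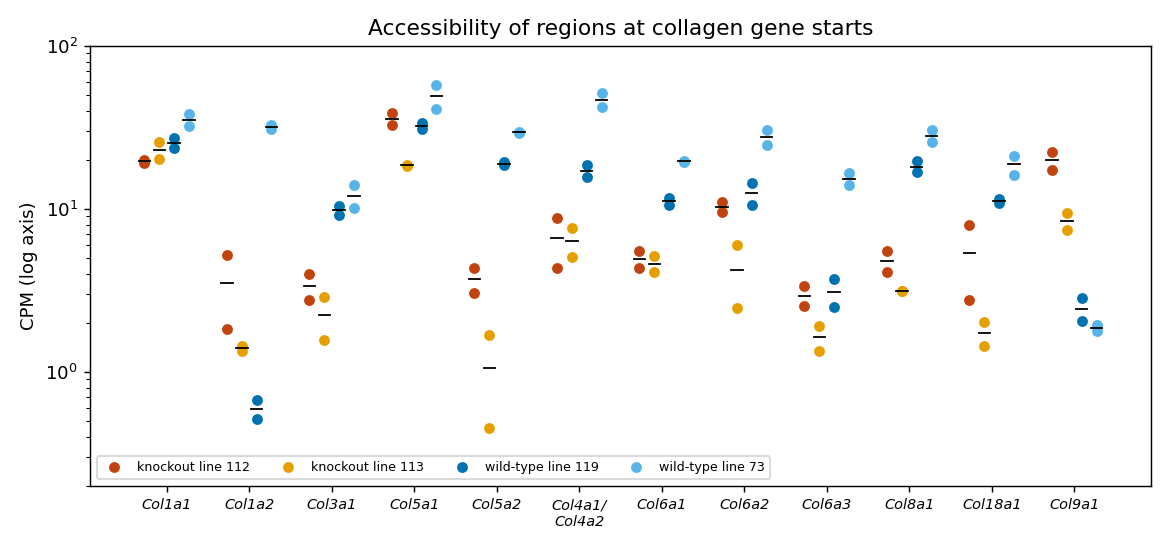
Accessibility of the strongest region within 1 kb of the start of 11 collagen genes and the start shared by Col4a1 and Col4a2, in CPM on a log axis, with a point per library and a bar at each line's mean. Col3a1, Col5a2, Col4a1/Col4a2, Col6a1, Col8a1 and Col18a1 were lower in all knockout than in all wild-type libraries, Col9a1 was higher, and Col1a2 and Col6a3 were high in line 73 only.

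The type IV genes Col4a1 and Col4a2 encode the main chains of basement membranes and are read in opposite directions from a shared start, where the annotations overlap by 85 bp. The region there (chr8:11312332-11313351) had 4.36 and 8.84 CPM for line 112, 7.64 and 5.03 for line 113, 18.6 and 15.7 for line 119, and 51.6 and 42.1 for line 73. Both knockout lines were below both wild-type lines, and line 73 was well above line 119. The means were 6.47 ± 0.186 and 32.0 ± 21.0 CPM (SD, n = 2 lines per genotype), and the log2 fold change was -2.34 ± 0.75 with an adjusted p of 0.164 in edgeR's quasi-likelihood test. Most regions of the pair had the same direction, though not all. All 57 regions of the 2 genes were tested, and 45 had a log2 fold change below 0, beside 53.4% of all regions. Of the 57, 13 were separated and lower, beside 7.42% of all regions, and 0 were separated and higher, beside 7.63%. Regions above 0 included one on the Col4a1 side with 9.35, 30.3, 17.3 and 0.930 CPM in lines 112, 113, 119 and 73. The separated regions lay from 107.2 kb on the Col4a1 side to 105.2 kb on the Col4a2 side of the shared start, 5 of them counted for Col4a1 and 9 for Col4a2 with the start region in both. Col4a2 had the most separated lower regions of any collagen gene, and Col4a1 and Col6a5 followed Col18a1 with 5 each. The tested regions numbered 28 for Col4a2, 33 for Col18a1, 30 for Col4a1 and 11 for Col6a5.

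**Figure D3:**
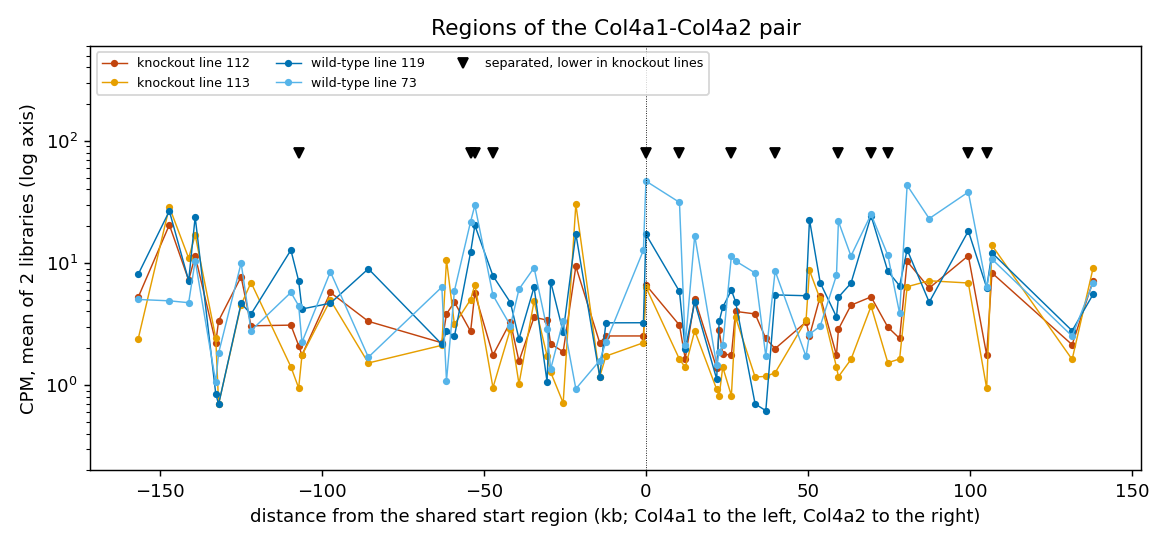
CPM of the 57 tested regions of Col4a1 and Col4a2 by line (mean of 2 libraries, log axis), against the distance in kb from the start region that both genes share. Triangles mark the 13 regions separated and lower in the knockout lines, which lie on both sides of the start.

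The other type IV genes were not alike. Col4a3 and Col4a4 share a start on chromosome 1, where the line means were 5.04, 1.85, 3.19 and 2.25 CPM, with overlap between genotypes. The start region of Col4a5 on chromosome X (chrX:141475134-141475651) was high in line 73 only, with line means of 2.25, 1.74, 0.783 and 9.36 CPM. Col4a6 beside it had no start region. Of its 12 tested regions 1 was separated and lower, beside 7.42% of all regions. Weak regions of chromosome X stood 0.28 above the mean of the lines in line 113 and at -0.23 in line 73, and those of chromosome Y, 5 regions, stood at -1.43 and -1.12 in lines 112 and 113 and at 0.93 and 1.84 in lines 119 and 73 (log2 scale). The genotype and this difference in the sex chromosomes cannot be told apart.

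The type VI genes showed lower values in the knockout lines at several sites. Type VI collagen is built from the alpha 1 and alpha 2 chains with an alpha 3 type chain, and Col6a4, Col6a5 and Col6a6 encode alternatives to the alpha 3 chain. The start region of Col6a1 (chr10:76725830-76726404) had 4.36 and 5.49 CPM for line 112, 5.17 and 4.07 for line 113, 10.6 and 11.7 for line 119, and 19.5 and 19.8 for line 73. The groups did not overlap, and the log2 fold change was -1.69 ± 0.83 (adjusted p 0.309, edgeR's quasi-likelihood test). At Col6a2 (chr10:76622822-76623798) the values were 9.64 and 11.0, 2.47 and 5.99, 10.5 and 14.4, and 30.6 and 24.5 CPM in lines 112, 113, 119 and 73, so line 112 reached into the range of line 119. At Col6a3 (chr1:90843678-90844289) they were 2.52 and 3.35, 1.35 and 1.92, 3.71 and 2.51, and 16.7 and 14.04 CPM, high in line 73 only.

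Col6a4, Col6a5 and Col6a6 lie in a row on chromosome 9 with 27854 and 27823 bp between them. Separated lower regions were 5 of 11 tested for Col6a5, 4 of 11 for Col6a4 and 0 of 5 for Col6a6. Over all regions the share was 7.42%. The region with the smallest genotype p of all collagen regions lies inside Col6a4, 52321 bp from its nearest end (chr9:106043867-106044507). It had 2.29 and 2.13 CPM for line 112, 2.70 and 0.479 for line 113, 29.6 and 27.1 for line 119, and 24.3 and 24.2 for line 73. The wild-type lines were near each other and both well above the knockout lines, by 13.7-fold in the means. The log2 fold change was -3.78 ± 0.84 with an adjusted p of 0.144 in edgeR's quasi-likelihood test. Leaving out line 112 replicate 1, it was -3.84 with an adjusted p of 0.0453, and this was the only collagen region called in any test with lines as units that left out a library. At the start of Col6a4 itself (chr9:106096542-106097073) the line means were 1.87, 1.03, 0.866 and 10.1 CPM, so this start was high in line 73 only.

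The start of Col18a1 was low in both knockout lines. Col18a1 encodes the multiplexin chain whose end fragment is endostatin. Its start region (chr10:77166272-77166800) had 2.75 and 7.93 CPM for line 112, 2.02 and 1.44 for line 113, 11.5 and 10.9 for line 119, and 21.2 and 16.2 for line 73. The groups did not overlap, with line 112 replicate 2 nearest to line 119, and the log2 fold change was -2.16 ± 0.88 (adjusted p 0.234, edgeR's quasi-likelihood test). Of 33 tested Col18a1 regions 8 were separated and lower and 0 separated and higher, beside 7.42% and 7.63% of all regions.

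Col15a1, the other multiplexin, held regions of both kinds, 4 separated and lower and 5 separated and higher of 33. Over all regions 7.42% and 7.63% fell in these classes. Near its end, 2 regions only 1285 bp apart went in opposite directions. The first (chr4:47310722-47311253, inside the gene) had 1.61 and 3.66 CPM for line 112, 1.80 and 3.60 for line 113, 22.8 and 20.2 for line 119, and 26.1 and 25.6 for line 73, a log2 fold change of -3.20 ± 0.83. The second (chr4:47312539-47313235, over the gene's last bases) had 7.11 and 5.79 CPM for line 112, 7.42 and 8.15 for line 113, 0.768 and 0.502 for line 119, and 0.506 and 0.275 for line 73, a log2 fold change of 3.69 ± 0.95. Its wild-type libraries held only 1 to 6 counts each. Each had an adjusted p of 0.144 in the edgeR genotype test.

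Other Col15a1 regions repeated both patterns. A region 30140 bp before the gene (chr4:47176965-47177515) had 1.80 to 3.36 CPM in the knockout libraries and 21.7 to 28.3 CPM in the wild-type libraries, with a log2 fold change of -3.13 ± 0.82. The strongest region of the gene that was separated and higher (chr4:47232687-47233805) had 23.4 and 21.0 CPM for line 112, 31.5 and 21.3 for line 113, 8.20 and 7.36 for line 119, and 3.04 and 2.75 for line 73, with a log2 fold change of 2.16 ± 0.80. The Col15a1 start itself had 4.07 to 9.45 CPM in the knockout and 11.1 to 13.4 CPM in the wild-type libraries, without overlap, but it was not separated, since the pair of lines 112 and 73 was not called.

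Higher values in the knockout lines were found mainly at Col9a1, Col11a1, Col15a1 and Col28a1. Col9a1 encodes a chain of the FACIT type IX collagen, known from cartilage. It had 6 separated higher regions of 10 tested and Col11a1 6 of 12, the most of any collagen gene, beside 7.63% of all regions. Col19a1, another FACIT gene 4944 bp from Col9a1, had 2 of 18. The strongest of the Col9a1 regions (chr1:24211928-24212510, inside the gene) had 19.0 and 15.2 CPM for line 112, 30.8 and 22.8 for line 113, 11.9 and 10.7 for line 119, and 1.01 and 0.826 for line 73. Line 119 lay between the knockout lines and line 73, and the log2 fold change was 1.80 ± 0.95 (adjusted p 0.352, edgeR's quasi-likelihood test). The region 587 bp from the gene's other start (chr1:24195790-24196621) had 22.5 and 17.4, 9.44 and 7.43, 2.05 and 2.84, and 1.77 and 1.93 CPM in lines 112, 113, 119 and 73, without overlap between the groups, and a log2 fold change of 2.73 ± 0.90.

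Col11a1 encodes a fibrillar chain that is best known from cartilage fibrils. Its strongest separated higher region (chr3:114099291-114099844, inside the gene) had 12.2 and 5.49 CPM for line 112, 17.5 and 8.39 for line 113, 3.33 and 2.84 for line 119, and 0.253 and 1.10 for line 73, with a log2 fold change of 2.50 ± 0.95. A region inside the gene at chr3:114102206-114102798 had 2.29 and 2.44, 15.5 and 8.15, 0.512 and 0.502, and 0.759 and 0 CPM in lines 112, 113, 119 and 73, so its level came mainly from line 113, and the log2 fold change was 3.92 ± 1.05. A region 3277 bp before the gene (chr3:114026494-114027202) had 1.52 to 11.2 CPM in the knockout and 0.167 to 0.826 CPM in the wild-type libraries, a log2 fold change of 3.56 ± 0.98. In both of these the wild-type libraries held 0 to 4 counts. Col11a1 also had 1 region that was separated and lower. Its own start region was weak in every line, at 2.21, 1.51, 2.24 and 1.32 CPM.

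The starts of Col8a1 and Col28a1 are named because they were separated, and were chosen after their values were seen, as was the Col9a1 start. Col8a1 encodes a network-forming chain found beneath endothelia and in the eye. The region 402 bp before its start (chr16:57755139-57755964) had 4.13 and 5.49 CPM for line 112, 3.15 and 3.12 for line 113, 19.6 and 16.7 for line 119, and 30.4 and 25.6 for line 73, with a log2 fold change of -2.56 ± 0.81 (adjusted p 0.160, edgeR's quasi-likelihood test). Col28a1 encodes a collagen known from peripheral nerve. A region over the gene's 5′ end (chr6:8193456-8194043), 839 bp from the start in the promoter table, had line means of 3.44, 5.50, 0.802 and 0.379 CPM, with 0 counts in line 73 replicate 2. The shift of chromosome 6 in lines 112 and 119 given for Col1a2 also covers Col28a1. Col17a1, the transmembrane collagen of hemidesmosomes, had no start region, and its 6 regions summed to 40.4, 36.7, 52.6 and 39.8 CPM in lines 112, 113, 119 and 73.

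None of the other collagen starts was separated. Among the fibrillar genes, Col27a1, a chain of cartilage and other tissues, was open in every line, with line means of 18.6, 28.0, 34.2 and 27.5 CPM in lines 112, 113, 119 and 73. Col2a1, the main cartilage collagen, had 7.67, 5.93, 12.5 and 7.47 CPM at the end nearest its region, and Col24a1 was weak everywhere, at 2.63, 2.07, 2.17 and 1.31 CPM. The genotypes overlapped at these 3 genes.

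The start of Col16a1, a FACIT gene, was lowest in line 113. Its libraries (chr4:130047527-130048102) had 10.6 and 11.0 CPM for line 112, 3.15 and 2.88 for line 113, 13.1 and 11.9 for line 119, and 27.1 and 22.3 for line 73. All knockout libraries lay below all wild-type libraries, though line 112 was close to line 119 and that pair was not called. Its log2 fold change was -1.44 ± 0.85. Of 14 tested Col16a1 regions 2 others were separated and higher, beside 7.63% of all regions. The sum over the gene was 157.6, 128.1, 123.9 and 155.7 CPM. Col20a1, another FACIT gene, was low in line 73 only, at 24.4, 33.8, 29.2 and 2.93 CPM. Col9a3 showed a like order, at 4.89, 8.87, 9.80 and 1.30 CPM. The start of Col19a1 had 6.30, 7.66, 7.44 and 4.47 CPM and that of Col9a2 had 3.89, 3.02, 5.83 and 1.98 CPM, with overlap between genotypes in both.

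Among the transmembrane genes, Col25a1, the chain found with amyloid plaques, had 20.2, 11.2, 17.5 and 6.64 CPM at its start in lines 112, 113, 119 and 73. Col23a1 had 9.39, 19.3, 21.4 and 18.5 CPM, lowest in line 112. Both overlapped between genotypes. Col7a1, the anchoring fibril chain that fixes skin epidermis to dermis, had 4.96, 2.08, 5.07 and 3.65 CPM near its start. Its 4 regions summed to 26.8, 11.8, 53.4 and 54.2 CPM, and edgeR gave an adjusted p of 0.466 for their log2 fold change of -1.43 ± 0.53.

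The structural classes of collagen differed in the median and in the number of separated regions, but single loci held many of the separated regions. The median log2 fold change over tested regions was -1.14 for 66 beaded filament (type VI) regions, -0.85 for 87 basement membrane (type IV) regions and -0.56 for 152 fibrillar regions, beside -0.09 for all regions. Of the type VI regions 13 (19.7%) were separated and lower and 1 higher. Of these 13, 5 lay in Col6a5 and 4 in the adjacent Col6a4. Of the type IV regions 15 (17.2%) were separated and lower and 0 higher. The Col4a1-Col4a2 pair held 13 of these 15. Of the fibrillar regions 21 (13.8%) were separated and lower and 11 (7.24%) higher, 6 of the latter in Col11a1. The 124 FACIT regions went the other way in their separated members, with 17 (13.7%) higher and 7 (5.65%) lower and a median of 0.01. Col9a1 held 6 of the 17 higher ones. The multiplexins had 12 lower (18.2%) and 5 higher of 66, with a median of -0.34, and the network collagens 4 lower (14.3%) and 1 higher of 28, with a median of -0.12. The transmembrane collagens had 3 lower and 3 higher (4.35% each) of 69, with a median of 0.01. The single anchoring gene Col7a1 had 1 lower and 0 higher of only 4 regions, with a median of -1.17. Col26a1 with Col28a1 had 0 lower and 5 higher (16.1%) of 31, with a median of 0.63, and all 5 lay in Col28a1. Each of these shares stands beside 7.42% lower and 7.63% higher over all regions.

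**Figure D4:**
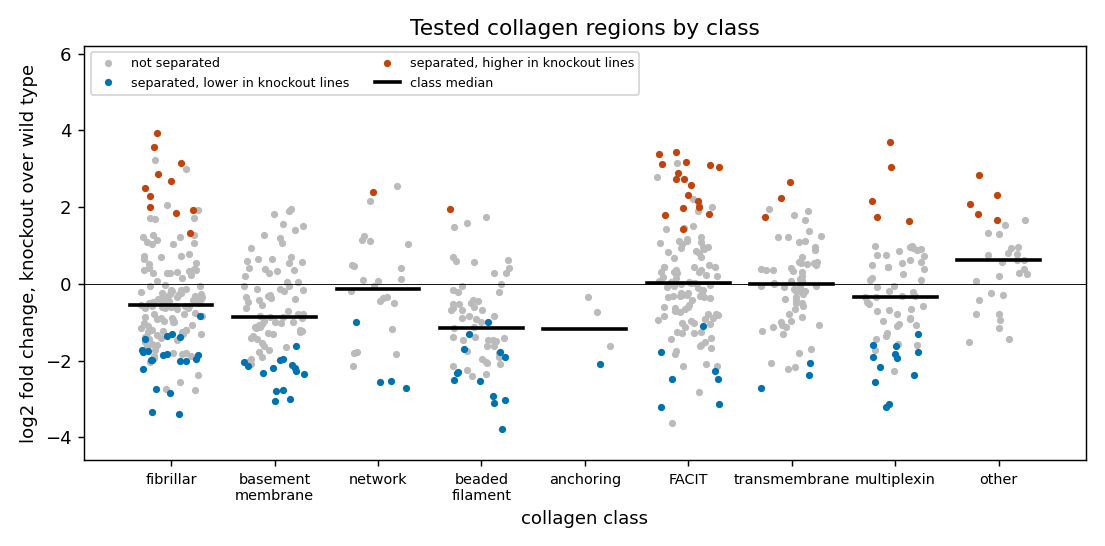
Log2 fold change, knockout over wild type, of the 627 tested collagen regions by class, with blue and red points for regions separated and lower or higher in the knockout lines, grey points for the rest and a black bar at the class median. The medians lie at -1.14 for beaded filament and -0.85 for basement membrane genes and at 0.01 for FACIT genes.

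Summed over all regions of a gene, 29 of 44 collagen genes (65.9%) had a log2 fold change below 0, against 51.1% of 17787 genes, and the median was -0.31 against -0.01. In these sums a region inside another gene only was counted for that gene. The Col10a1 sum therefore held only its start region, of 6 regions assigned to it by the rule above. None of the 44 passed the genotype test with lines as units, where 0% of all genes passed, and the lowest adjusted p was 0.233. Without adjustment, 9 genes with p under 0.05 were lower (20.5%, against 6.09% of all genes) and 1 was higher (2.27%, against 3.23%). DESeq2's Wald test called 3 of the 44 (6.82%, against 2.38% of all genes), Col4a2, Col6a4 and Col6a5.

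The 3 genes with the smallest p below 0 were Col6a4, Col6a5 and Col4a2. Col6a4 summed to 29.0, 17.6, 82.9 and 88.5 CPM in lines 112, 113, 119 and 73, a log2 fold change of -1.89 ± 0.40. Col6a5 summed to 23.7, 13.8, 63.4 and 76.2 CPM, a log2 fold change of -1.87 ± 0.42. Their neighbour Col6a6 had a log2 fold change of 0.10 ± 0.44. Col4a2 summed to 114.5, 98.1, 209 and 363 CPM, a log2 fold change of -1.40 ± 0.32. In each of these 3 genes both knockout lines were below both wild-type lines. When total counts set the scaling, Col6a4 passed with an adjusted p of 0.0423 in edgeR's quasi-likelihood test.

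The 3 genes with the smallest p above 0 were Col9a1, Col11a1 and Col9a3. Col9a1 summed to 98.3, 106.1, 44.7 and 15.5 CPM in lines 112, 113, 119 and 73, a log2 fold change of 1.63 ± 0.63. Col11a1 summed to 43.5, 79.4, 36.0 and 28.5 CPM, a log2 fold change of 0.83 ± 0.37. Col9a3 summed to 48.8, 50.1, 33.6 and 23.9 CPM, a log2 fold change of 0.72 ± 0.39. Of the 9 FACIT genes 7 had a log2 fold change of the sum above 0, and the exceptions were Col12a1 and Col22a1. Over all genes 51.1% of the sums were below 0. Among the 7, Col14a1 (0.03 ± 0.37) and Col16a1 (0.06 ± 0.32) were near 0. Of the 9 only 1, Col9a1, had an unadjusted p under 0.05 in edgeR's genotype test.

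**Figure D5:**
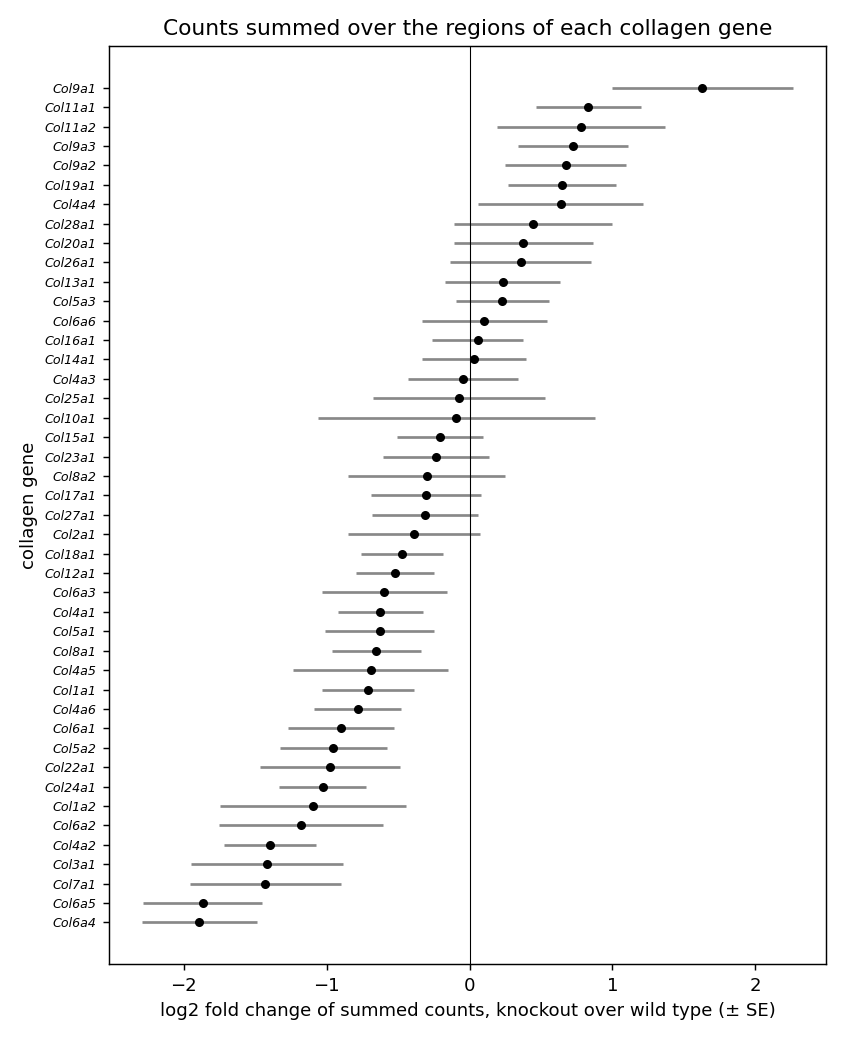
Log2 fold change, knockout over wild type, of the counts summed over the regions of each of the 44 collagen genes, with the standard error of the genotype test with lines as units. The sums run from -1.89 for Col6a4 to 1.63 for Col9a1, with 29 genes below 0. The Col10a1 sum holds only its start region.

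The genes that make, process and bind collagen did not share a single direction. Of 134 tested regions of 19 collagen biosynthesis genes, 10 (7.46%) were separated and lower and 13 (9.70%) higher in the knockout lines. Over all regions these shares were 7.42% and 7.63%, so those of this list were near them. The median log2 fold change was 0.22, against -0.09 over all regions. At most starts of this list the genotypes overlapped, for example at P4hb, a subunit of prolyl 4-hydroxylase, with line means of 37.5, 59.5, 27.7 and 55.9 CPM, and at Serpinh1, the collagen chaperone, with 16.9, 23.5, 15.1 and 25.3 CPM. The start region shared by P3h4 and Fkbp10, whose products act in lysine modification and folding of collagen, was separated and lower, at 7.75, 11.3, 21.6 and 47.2 CPM. The start of P3h2, a prolyl 3-hydroxylase, was separated and higher, at 33.0, 51.4, 21.7 and 23.2 CPM. For P3h2, P3h4 and Fkbp10, as for Lox and Loxl1 below, the strongest region within 1 kb of either gene end was taken, since the strand was not known here. These start regions were chosen after their values were seen.

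Processing and cross-linking genes held 116 tested regions, of which 16 (13.8%) were separated and lower and 9 (7.76%) higher, with a median of -0.76. Over all regions the shares were 7.42% and 7.63% and the median -0.09. The start of Adamts14, a procollagen N-propeptidase, was separated and lower at 9.24, 4.88, 19.3 and 33.8 CPM in lines 112, 113, 119 and 73. The lysyl oxidase gene Loxl1 was high in line 73 only, at 2.67, 2.33, 2.41 and 26.4 CPM, and so was Lox, at 7.67, 4.88, 6.27 and 38.3 CPM. This is the line in which Col1a2, Col6a3, Col6a4 and Col4a5 had their open starts. The 114 tested regions of collagen receptor genes included 8 (7.02%) separated and lower, near the 7.42% of all regions, and 3 (2.63%) higher, against 7.63%. Their median was -0.36, and 0 of their 6 start regions was separated.

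The marker lists moved beside the collagen genes as follows. Of 102 tested regions of melanocyte lineage markers 32 (31.4%) were separated and higher in the knockout lines, against 7.63% of all regions. Another 2 (1.96%) were lower, against 7.42%, and the median log2 fold change was 1.14. Of 68 regions of fibroblast markers 6 (8.82%) were separated and lower and 5 (7.35%) higher, both near the shares of all regions, with a median of -0.61. The start of Pdgfrb, a receptor of mesenchymal cells, was separated and lower, at 5.57, 3.61, 12.8 and 47.6 CPM in lines 112, 113, 119 and 73. Pdgfra had 1.79, 1.17, 1.56 and 12.7 CPM and Dcn, the proteoglycan decorin, had 1.60, 1.05, 0.212 and 7.81 CPM, both high in line 73 only. Thy1, a surface glycoprotein, had 3.05, 1.41, 1.82 and 11.7 CPM and Twist2, a transcription factor of mesenchymal cells, 11.4, 22.0, 14.2 and 59.6 CPM, also highest in line 73. Lum, the proteoglycan lumican, went the other way with 2.48, 1.49, 0.443 and 0.666 CPM, all knockout libraries above all wild-type libraries. Postn, which encodes periostin, had 13.9, 30.1, 21.4 and 22.3 CPM with overlap, and Fap had 8.71 CPM in line 119 and 0.877 to 1.62 CPM in the others. The part of the lineage state of the lines in the collagen results was not tested.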

How the data were processed

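ATAC-seq libraries of 4 mouse melanoma lines, 2 per line, were used as deposited. The authors deposited raw counts per region for 148664 regions of 501 to 3708 bp. Each library also has a list of peaks deposited by the authors, with a fold enrichment (a ratio) and a −log10 q-value from the peak caller. The lists were used only through the overlap of peaks with regions. Per the submitters' processing notes, Bowtie2 2.2.4, Picard 1.118, MACS2 2.1.1.20160309 and the build mm10 (GRCm38) were used. The treatment of duplicates, the transposase shift, and whether reads, fragments or cuts were counted are not given in the sources used here, so counts may include PCR duplicates and counting error may be larger than it appears. Fragments above 1200 bp were removed, per the labels.

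Genes came from the RefSeq table of GRCm38.p6, and starts and strands from its promoter table for 35 of the 44 collagen genes. Coordinates of regions follow the files and count from 1. The gene table holds no exons, so position within a gene is not resolved further.

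Low counts were removed with filterByExpr on line sums, at a minimum count of 10 and total of 15, and libraries were scaled by TMM. edgeR 4.0.16 in R 4.3.3 fitted all regions (robust glmQLFit, two-sided glmQLFTest, threshold 0.05), on counts summed per line for the genotype and on the 8 libraries for pairs of lines. Standard errors are the log2 fold change over the square root of F. The scripts were tested on simulated data. Named regions were the strongest within 1 kb of the start of 12 chosen genes, the 3 smallest p in each direction, the strongest separated region of the 3 genes with most of them, the strongest region of all, and the 3 gene sums with the smallest p in each direction. The members and lists were chosen with earlier results of these data known. Alternatives were other scalings (DESeq2 1.42.0), filters, assignments, units and tests, an offset per 10 Mb window, and leaving out each library.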

Additional observations from a re-analysis of the deposited data

Results flagged for a closer look

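In groups of 4 libraries, a library was looked at again when its gap to the nearest of the others, divided by the whole range, passed Dixon's 95% critical value. This held in 3 of 44 groups examined. Each group joins the libraries of 2 lines of a genotype, so the usual rate of 1 in 20 need not hold. At the Col1a1 region, line 113 replicate 1 had 25.6 CPM and the other knockout libraries 19.2 to 20.1 CPM. At the Col1a2 start, line 112 replicate 2, the shallowest library, had 5.18 CPM and the other knockout libraries 1.35 to 1.84 CPM. At the region near the Col28a1 start, line 73 replicate 2 had 0 CPM, which allows up to 3 counts, and the other wild-type libraries 0.759 to 0.836 CPM.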

How the results depend on the processing

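No named region or gene sum turned its direction under the alternatives run. The share of separated higher regions was lower in collagen regions than in all regions (6.86% and 7.63%), and this order turned round at 50 counts or more on average (8.05% and 6.11%), without replicate 1 of line 112 (5.93% and 5.50%) and without replicate 2 of line 119 (6.48% and 6.30%). The median log2 fold change over all regions was -0.09, and 0.04 at 50 counts or more. The genotype test with lines as units called 0 collagen regions. It called 179 when each library was a unit (28.5%, against 22.7% of all regions), 42 with DESeq2's Wald test (6.70% against 4.83%), and 0 to 1 when a library was left out (without replicate 1 of line 112, 0.16% against 0.45%). Restricting the table to regions of at least 50 counts on average left 87 collagen regions tested and gave 15 separated lower (17.2%, against 11.7% of all regions) and 7 separated higher, and 49, 59, 74, 74, 40 and 63 regions called between lines 112 and 119, 112 and 73, 113 and 119, 113 and 73, 112 and 113, and 119 and 73. These counts are out of 87 tested regions, against 627 in the main fit, where 12.1% of collagen regions were separated and lower. For the pairs no share over all regions is given at this setting, so their counts are not read as a result. Leaving out a library gave 60 to 74 separated lower and 32 to 42 separated higher regions, and 66 to 140 called between lines 112 and 113. Summed counts called 0 genes, against 1 with total counts, 13 with libraries as units (29.5%, against 12.3% of all genes) and 3 with DESeq2's Wald test. With libraries as units, the 2 libraries of a line count separately although genotype varies only between lines. Those calls are therefore not read as tests of genotype. The cause of the other differences between tests was not tested. Of 341 alternatives for 22 named regions, 297 stayed on the same side of the threshold and 44 passed it, and for 19 gene sums 251 of 266 stayed and 15 passed. Of the 44, 17 passed with libraries as units, 16 with the replicate block and 10 with DESeq2's Wald test. Of the 15, 11 passed with libraries as units. Other scalings, no filter on low counts, other assignments and the offset per 10 Mb window kept every count of separated regions within 1.5 times. Regions of a few counts per library limit what single regions show.

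With the replicate block, libraries as units, the genotype test called 139 collagen regions (22.2%, against 17.3% of all regions), 85 lower and 54 higher. The limit given above for libraries as units holds for these calls too. Deviations of same-numbered libraries correlated at -0.0368 to 0.00388 between lines, so the samples share only a number.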
